A study of Mus musculus with 10 samples.

Results

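The sirtuin family of 7 genes, Sirt1 to Sirt7, was examined in the cochlea of mtKeima mice. The members were taken by gene symbol, and all 7 were found among the 54532 genes of the count tables. RNA of the whole cochlea had been sequenced from 5 mice given nicotinamide riboside (NR) and 5 mice given regular water. NR was supplied in the drinking water at 7 mg/ml (24 mM) for 10 months, from 2 months of age, and all mice were 12 months old at dissection. Every mouse of both groups carried the mtKeima transgene, a pH-dependent fluorescent protein targeted to mitochondria, on a mixed background that the study genotyped as wild type for cadherin23 and for Nnt. The sample labels call the mice female, whereas the methods state male. The Y-linked genes Ddx3y, Eif2s3y, Kdm5d and Uty were read in all 10 libraries, with Ddx3y at 68.4 ± 4.30 CPM (counts scaled to 1000000 per library) with NR and 76.2 ± 5.38 CPM without (SD, n = 5 each). No library held more than 8 reads of the X-inactivation RNA Xist, and the counts thus go against the female label.

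Sirtuins are enzymes that consume NAD+ to remove acetyl and other acyl groups from lysines of proteins, or to transfer ADP-ribose to them. NR is a precursor of NAD+, which is why the family is of interest under NR. SIRT1, SIRT6 and SIRT7 are found mainly in the nucleus, where they act on histones, transcription factors and the DNA repair and ribosomal RNA machinery. SIRT2 is mainly cytoplasmic and deacetylates tubulin, and in nervous tissue it is known from myelinating glia. SIRT3, SIRT4 and SIRT5 work in mitochondria, on enzymes of fuel oxidation and the antioxidant response. SIRT3 is known in the inner ear for its requirement in the protection of hearing by caloric restriction.

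All 7 genes code for the same glycine-rich NAD-binding motif, whose coding sequence is shown because it is what defines the family and because near-identical copies could have shared reads. Each stretch has 42 bases and is read 5′ to 3′ on the coding strand from the GENCODE M21 transcript with the longest coding sequence, and capitals mark the bases that are identical in all 7 genes.
Sirt1: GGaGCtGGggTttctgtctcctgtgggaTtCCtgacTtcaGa
Sirt2: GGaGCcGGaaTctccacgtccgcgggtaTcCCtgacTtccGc
Sirt3: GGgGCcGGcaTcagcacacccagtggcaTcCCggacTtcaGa
Sirt4: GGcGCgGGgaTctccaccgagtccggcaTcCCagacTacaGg
Sirt5: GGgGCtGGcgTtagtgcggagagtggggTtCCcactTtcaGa
Sirt6: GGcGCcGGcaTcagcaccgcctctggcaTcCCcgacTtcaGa
Sirt7: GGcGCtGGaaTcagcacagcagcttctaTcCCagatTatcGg
These stretches lie in coding exons of mm10 at chr10:63331865-63335644 (minus strand, exons 8 and 9 of the transcript used) for Sirt1 and chr7:28776881-28777018 (plus strand, exons 5 and 6) for Sirt2. For Sirt3 the place is chr7:140877882-140877997 (minus strand, exons 2 and 3), for Sirt4 chr5:115482896-115482937 (minus strand, exon 2) and for Sirt5 chr13:43371888-43371929 (plus strand, exon 3). Those of Sirt6 and Sirt7 are at chr10:81625898-81626530 (minus strand, exons 2 and 3) and chr11:120622188-120624507 (minus strand, exons 3 and 4). Where 2 exons are named, the coordinates include the intron between them. Of the 42 bases, 12 were identical in all 7 genes, Sirt3 and Sirt6 shared 36, and Sirt1 and Sirt7 shared 18. Even so, the longest run of bases shared by the transcripts of any 2 sirtuins was 14, and no 50-base stretch of one sirtuin occurred in another, so reads of the members could be told apart.

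The total count per mouse was 17060379 to 24419230, and every sirtuin was read at least 177 times in every library, so that all 7 passed the filter on low counts. Counting error alone amounted to a coefficient of variation of 1.5% for Sirt2 and 5.79% for Sirt5, the most and the least counted members. As the reads are of a whole organ, a change in the number of cells of a type and a change in the RNA per cell cannot be told apart. The cochlea's own markers were present, with Coch, a matrix protein of the spiral ligament and limbus, at a mean of 2797 CPM and Otof, a synaptic protein of inner hair cells, at 98.6 CPM. Marker lists were set against the groups, and 0 of their genes passed an adjusted p of 0.05 in edgeR, where 0% of all tested genes did. All 9 tested adipocyte genes had higher estimates in the NR-treated mice, with summed levels of 102 to 273 against 54.4 to 90.1 CPM (exact permutation p = 0.00794 for the mean log2 level). The list includes Plin1, Cidec and Pck1, which the study had named from these same libraries as raised by NR, so this p is not an independent test. The skeletal muscle genes summed to 12.2 to 971 against 11.3 to 88.5 CPM (exact permutation p = 0.103). The 10 genes of the cochlea's own stria vascularis and fibrocytes all had lower estimates, with sums of 4589 to 6893 against 5398 to 8949 CPM (exact permutation p = 0.0635). No defining marker of these 3 lists lacked reads altogether, Myh2 and Lep fell under the filter on low counts, and the part of these differences in the sirtuin values was not tested beyond the correlations given further on.

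Sirt2 was the most abundant sirtuin transcript of the cochlea. Levels between genes are compared per kilobase, here of the gene length given with the counts. On that scale Sirt2 stood at 40.3 ± 3.64 CPM per kilobase (SD, n = 10 mice), followed by Sirt7 at 15.3 ± 0.996, Sirt4 at 10.3 ± 0.438 and Sirt6 at 9.85 ± 0.608. Sirt3 at 5.68 ± 0.261, Sirt1 at 5.24 ± 0.550 and Sirt5 at 2.23 ± 0.256 CPM per kilobase made up the lower end. Sirt2 thus took 45.2% of the summed sirtuin level per kilobase, and the 3 mitochondrial members together took 20.7% ± 0.697 in NR-treated and 20.3% ± 0.942 in non-treated mice (SD, n = 5 each). Neighbours in this order were compared within each mouse by exact two-sided sign-flip permutation tests, adjusted over the 6 pairs. Sirt2 exceeded Sirt7 2.63-fold, Sirt7 exceeded Sirt4 1.49-fold, Sirt6 exceeded Sirt3 1.73-fold and Sirt1 exceeded Sirt5 2.35-fold, each in 10 of 10 mice with an exact adjusted p of 0.00293. Sirt4 and Sirt6, with a log2 ratio of 0.06 ± 0.11 and Sirt4 higher in 6 of 10 mice, did not differ beyond their spread (exact adjusted p = 0.0996). The same held for Sirt3 and Sirt1, with a log2 ratio of 0.12 ± 0.20 and Sirt3 higher in 8 of 10 mice (exact adjusted p = 0.0996).

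Sirt2, Sirt7 and Sirt6 held the first, the second and the fourth place under each of the 3 lengths tried, and the other members changed places. The gene length in the files is the union of all annotated exons, retained introns included, and is 5973 bases for Sirt3 against 1606 for its longest coding transcript. With the spliced length of the longest coding transcript, a choice made after seeing the data, Sirt3 took the third place at 21.1 ± 0.972 CPM per kilobase, ahead of Sirt6 at 14.5 ± 0.895 and Sirt4 at 13.7 ± 0.586. Sirt5 at 7.59 ± 0.869 then exceeded Sirt1 at 6.31 ± 0.661. With coding length alone the order was the same as with spliced length, and Sirt5 and Sirt1, at 13.0 ± 1.48 and 12.6 ± 1.32 CPM per kilobase, were within their spread of each other. With coding length Sirt6 exceeded Sirt4 (log2 ratio of Sirt4 to Sirt6 -0.15, exact adjusted p = 0.00938) and Sirt3 exceeded Sirt1 (log2 ratio 1.54, 10 of 10 mice, exact adjusted p = 0.00293), where the gene length had left both pairs within their spread. The places of Sirt1, Sirt3, Sirt4 and Sirt5 therefore depend on the length used.

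**Figure D1:**
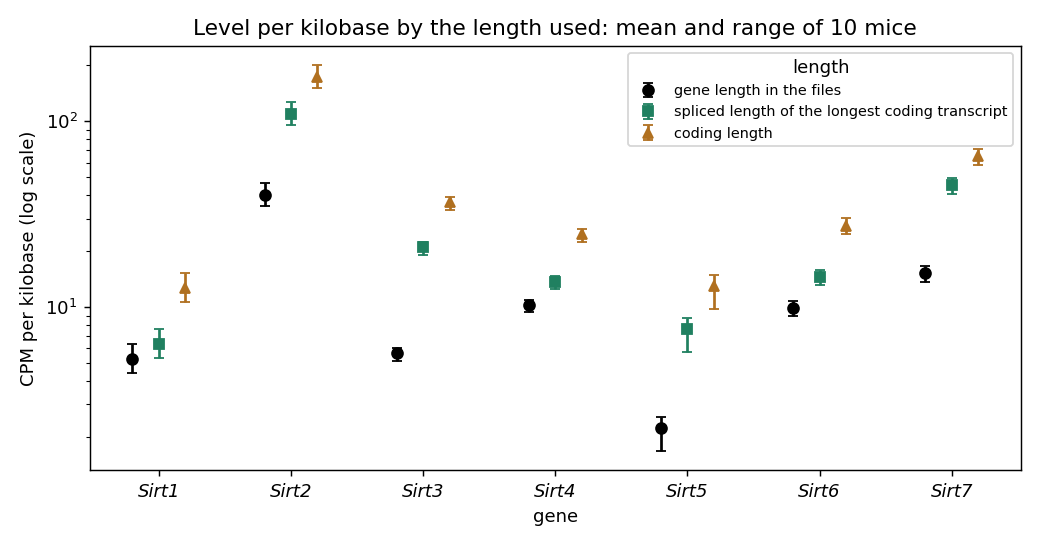
Level of each sirtuin in CPM per kilobase (log axis) under 3 lengths, with the mean (marker) and the lowest and highest of 10 mice (bars). Sirt2 and Sirt7 are first and second under every length, while Sirt3 takes the fifth place by gene length and the third place by the others.

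The comparison of NR-treated with non-treated mice asked whether long NR supply changed the transcripts of these NAD-consuming enzymes. No sirtuin passed the test: 0 of 7 reached an adjusted p of 0.05 in edgeR's quasi-likelihood test, 0 of 7 had an unadjusted p under 0.05, and 0 of 7 were called by DESeq2. Among all 18329 genes tested in edgeR, 0% passed the adjusted threshold and 9.71% the unadjusted one, and of 19468 genes with an adjusted p in DESeq2 0.539% passed. The largest log2 fold change of a sirtuin was -0.12, and the median absolute value over the 7 was 0.05 against 0.11 over all tested genes. The summed level was 405 ± 7.25 CPM in NR-treated and 413 ± 18.5 CPM in non-treated mice (SD, n = 5 each). Confidence intervals bound what this design could have missed: over the 7 genes the 95% intervals reached from a fold of 0.803 at the lowest to 1.16 at the highest.

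Of the nuclear members, Sirt1 encodes the deacetylase of p53, FOXO proteins and PGC-1α. It was at 29.0, 27.4, 24.3, 23.6 and 29.8 CPM in NR-treated mice 1 to 5, and at 33.9, 29.8, 26.5, 27.6 and 27.7 CPM in non-treated mice 1 to 5. The groups overlapped, with NR-treated mice 3 and 4 below and non-treated mice 1 and 2 above all the other group's values. Non-treated mouse 2 was above by little, at 29.76 CPM against 29.75 CPM in NR-treated mouse 5. The log2 fold change was -0.12 (SE 0.09, 95% interval -0.32 to 0.08), with an edgeR adjusted p of 0.684 and an exact permutation p of 0.222. Sirt6, whose product deacetylates histone H3 at DNA breaks and telomeres, had 27.8, 29.0, 27.5, 27.2 and 29.3 CPM with NR and 25.3, 26.4, 27.0, 24.8 and 30.1 CPM without. Its NR-treated values were close together and lay above 4 of the 5 non-treated ones, but the highest value of all belonged to non-treated mouse 5. Its log2 fold change of 0.08 (SE 0.06, -0.07 to 0.22) had an edgeR adjusted p of 0.713 (exact permutation p = 0.167). Sirt7 encodes a nucleolar deacetylase that is tied to ribosomal DNA transcription. Its values were 85.9, 70.4, 73.3, 81.4 and 81.1 CPM with NR and 84.2, 79.6, 75.9, 73.8 and 82.1 CPM without. Both the lowest and the highest of the 10 values came from the NR-treated group. With a log2 fold change of -0.01 (SE 0.06, -0.15 to 0.13), the edgeR adjusted p was 0.960 and the exact permutation p 0.810.

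Sirt2, the cytoplasmic tubulin deacetylase, was at 188, 216, 208, 189 and 194 CPM in NR-treated mice 1 to 5 and at 177, 199, 234, 227 and 194 CPM in non-treated mice 1 to 5. The non-treated group was the wider one and enclosed the NR-treated group at both ends, with mouse 1 lowest and mice 3 and 4 highest. The log2 fold change was -0.05 (SE 0.08, -0.23 to 0.13), with an edgeR adjusted p of 0.846 and an exact permutation p of 0.603.

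Among the mitochondrial members, Sirt3, the main mitochondrial deacetylase, came nearest to separate groups. It measured 34.6, 34.7, 35.4, 36.1 and 34.0 CPM with NR and 32.1, 30.8, 33.3, 33.7 and 34.5 CPM without. NR-treated mice 1 to 4 were above every non-treated mouse, and NR-treated mouse 5 was below non-treated mouse 5. The means differed by a fold of 1.06, or 0.09 on the log2 scale (SE 0.05, -0.02 to 0.20). The exact permutation test of this gene alone gave p = 0.0159, unadjusted, whereas in the edgeR test the p was 0.106 before adjustment and 0.590 after it, and the gene was not called. Sirt4, which encodes a lipoamidase and ADP-ribosyltransferase of mitochondria, had 24.3, 24.8, 23.7, 24.7 and 24.4 CPM with NR and 25.3, 22.5, 24.6, 26.3 and 25.7 CPM without. All 5 NR-treated values lay inside the non-treated range. Its log2 fold change was -0.03 (SE 0.06, -0.16 to 0.10; edgeR adjusted p = 0.886, exact permutation p = 0.556). Sirt5, the desuccinylase of the family, was at 13.1, 14.9, 13.3, 15.4 and 10.2 CPM with NR and at 13.4, 14.2, 13.2, 15.7 and 12.9 CPM without. NR-treated mouse 5 was the lowest, and the other 9 mice overlapped. The log2 fold change of -0.05 (SE 0.12, -0.30 to 0.20) had the widest interval of the 7 genes, with an edgeR adjusted p of 0.898 (exact permutation p = 0.659).

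**Figure D2:**
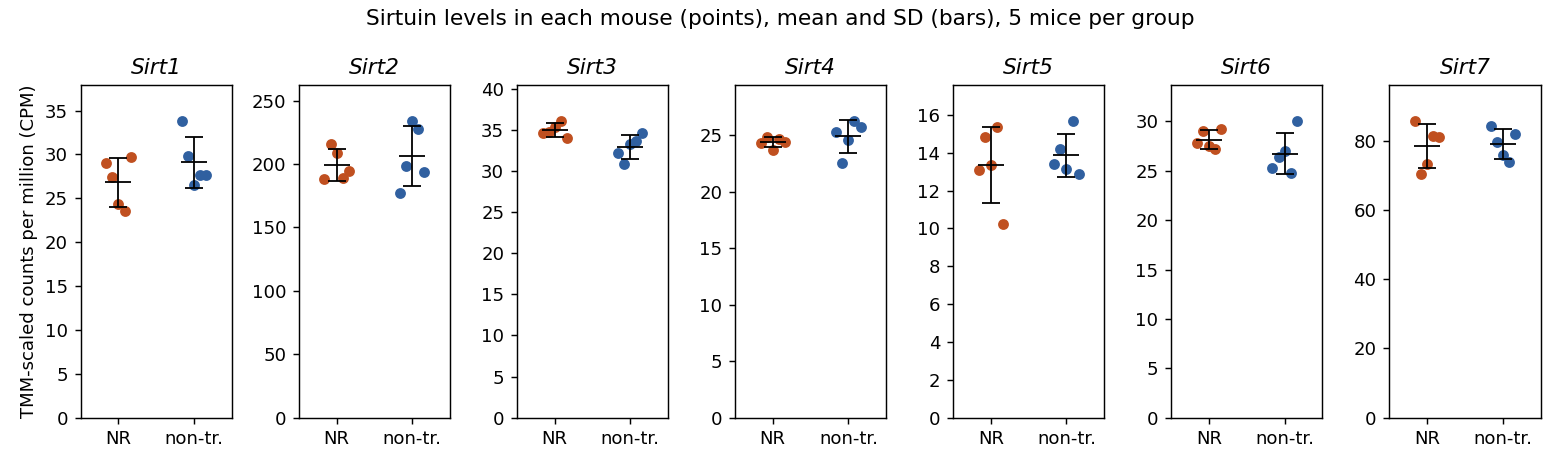
TMM-scaled CPM of each sirtuin in every mouse (points), with the mean and SD of 5 NR-treated and 5 non-treated (non-tr.) mice; each vertical axis starts at 0 and has its own scale. The groups overlap for all 7 genes, and Sirt3 is the one in which 4 of the 5 NR-treated mice lie above every non-treated mouse.

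**Figure D3:**
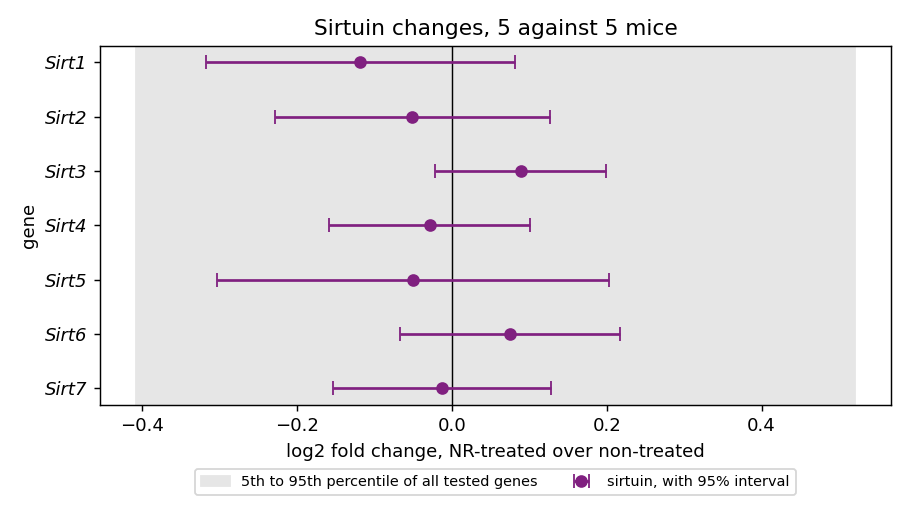
Log2 fold change of each sirtuin, NR-treated over non-treated, with its 95% interval from the edgeR fit; the grey band holds the 5th to 95th percentile of the log2 fold changes of all 18329 tested genes (-0.41 to 0.52). Every interval spans 0 and all 7 estimates lie inside the band.

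The genes next to the sirtuins were examined because reads were counted without regard to strand. Of 20 genes that overlap or flank a sirtuin, 16 were tested, and 0 of these passed an unadjusted p of 0.05 in edgeR and 0 an adjusted one. Sirt3 (mm10 chr7:140863666-140882309, minus strand) shares the most exon sequence with others. Its 5′ end shares 342 exonic bases with Psmd13, a proteasome subunit on the opposite strand, and its 3′ end shares 418 with Ric8a, a chaperone of G protein alpha subunits, which makes 5.73% and 7.00% of its exonic bases. Psmd13 had a log2 fold change of 0.05 (SE 0.05, edgeR adjusted p = 0.763) and Ric8a of 0.04 (SE 0.05, edgeR adjusted p = 0.788), both in the direction of Sirt3. Reads from such shared bases cannot be assigned to one strand's gene. Sirt7 (chr11:120618372-120625240, minus strand) shares 124 bases with the 3′ end of Mafg, and Sirt2 (chr7:28766735-28788661, plus strand) shares 42 with Nfkbib on the opposite strand. The 13035 bases in which Sirt1 (chr10:63319005-63381704, minus strand) overlaps the antisense gene Gm16145 had no reads assigned to that gene. Sirt4 (chr5:115478010-115484725, minus strand), Sirt5 (chr13:43365496-43395203, plus strand) and Sirt6 (chr10:81621785-81627797, minus strand) overlapped no annotated gene. For Sirt5, however, 14.2% of its distinct 50-base stretches, over all its annotated transcripts, also occur in transcripts of genes elsewhere. Wdr31 and Xpnpep1 are among those genes, and the share was the highest of the 7. It is a share of sequence and not of reads, and its part in the Sirt5 count was not tested.

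A RefSeq start region of Sirt3, 1 of those listed for the gene, is shown because its bases before the start site run into the first exon of Psmd13. The sequence is from RefSeq (GRCm38.p6, the assembly of mm10), chr7:140881820-140882119, minus strand, from 250 bases before to 50 after this Sirt3 start site. Psmd13 begins at 140881968, so the exonic bases it shares with Sirt3 lie upstream of this start site. They belong to Sirt3 transcripts that start further upstream. Capitals mark the letters GGGCGG, the core of the GC box bound by SP1 and related factors, searched on both strands.
Sirt3: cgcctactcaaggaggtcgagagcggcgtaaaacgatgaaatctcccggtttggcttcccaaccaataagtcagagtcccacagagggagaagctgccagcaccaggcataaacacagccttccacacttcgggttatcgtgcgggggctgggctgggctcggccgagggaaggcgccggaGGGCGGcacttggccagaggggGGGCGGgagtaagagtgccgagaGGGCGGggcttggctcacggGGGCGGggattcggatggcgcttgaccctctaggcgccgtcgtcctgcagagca
The window held 4 matches of GGGCGG, and the Sirt3 window of the upstream start (chr7:140882260-140882559) held 0. Of 32851 RefSeq promoter windows of the same length, 35.7% held this hexamer at least once on either strand. RefSeq windows were found for all 7 members, with 9 windows in all. A GGGCGG match was present in at least 1 window of every member but Sirt4, and the Sirt1 window held 7 with overlaps counted. CACGTG, an E-box, occurred in the Sirt1 window alone among the 9, against 7.15% of all windows, and TATAAA in 0 of the 9, against 13.6%. These matches describe letters and say nothing of binding.

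Between mice, no common rise and fall of the members passed a test. Over the 10 mice, 0 of the 21 pairs of sirtuins had a correlation that passed a Benjamini-Hochberg adjusted permutation p of 0.05. The strongest was an inverse relation of Sirt2 and Sirt7, with r = -0.815 (permutation p = 0.00482, adjusted 0.101) and rho = -0.867 (permutation p = 0.00243, adjusted 0.0510). It was r = -0.848 after centring each group on its mean, and so was seen within the groups as well. With scaling by library size only it was weaker, at r = -0.696. Without the 2 mice farthest from the median of Sirt2, non-treated mice 3 and 4, r was -0.918. Leaving out non-treated mouse 3 alone gave r = -0.884 with an adjusted permutation p of 0.0388, the one setting in which a pair passed. Sirt1 and Sirt3 had r = -0.726 (permutation p = 0.0183, adjusted 0.192) and rho = -0.721 (permutation p = 0.0234, adjusted 0.246). Their r was -0.539 without non-treated mouse 1 and NR-treated mouse 4 and -0.464 with scaling by library size only. The highest positive r was that of Sirt3 and Sirt6, at 0.469 (permutation p = 0.172, adjusted 0.781). Sirt3 and Sirt4 had r = 0.338, which was 0.711 after centring and -0.375 without non-treated mice 1 and 2.

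The sirtuins were also set against the levels of 11 lists of cell type markers, since the cochlea is a mixture of cell types. None of the 77 relations passed the adjusted threshold. Sirt2 went with the hair cell genes most closely (r = 0.863, permutation p = 0.00175, adjusted 0.135; rho = 0.636, permutation p = 0.0540, adjusted 0.567). Non-treated mice 3 and 4 were highest in both, and without them r was 0.627. Sirt2 also had r = 0.731 with the stria vascularis and fibrocyte genes (permutation p = 0.0158, adjusted 0.307; rho = 0.612, p = 0.0667), and without the same pair of mice r dropped to 0.256, so that this relation rests on them. With the neutrophil genes Sirt2 had r = -0.722 (permutation p = 0.0199, adjusted 0.307; rho = -0.624, p = 0.0600), and -0.470 without NR-treated mouse 2 and non-treated mouse 3. Sirt2 had r = -0.705 with the neuron genes (permutation p = 0.0246, adjusted 0.307; rho = -0.576, p = 0.0882), which became -0.216 without non-treated mice 3 and 4 and so rests on them. With the bone genes Sirt2 had r = -0.699 (permutation p = 0.0260, adjusted 0.307; rho = -0.697, p = 0.0301), and -0.586 without NR-treated mouse 1 and non-treated mouse 4. Sirt7 went with the bone genes (r = 0.800, permutation p = 0.00673, adjusted 0.259; rho = 0.721, permutation p = 0.0238, adjusted 0.567), and r was 0.699 without NR-treated mouse 1 and non-treated mouse 4. With the hair cell genes Sirt7 had r = -0.685 (permutation p = 0.0279, adjusted 0.307; rho = -0.588, p = 0.0810), and -0.795 without non-treated mice 3 and 4. The Schwann cell genes, which include the myelin gene Mbp, had it at a mean of 1861 CPM. Although Sirt2 is known from myelinating glia, its r with them was -0.397 (permutation p = 0.250, adjusted 0.608; rho = -0.370, p = 0.295), and its r with the oligodendrocyte genes was 0.494 (permutation p = 0.146, adjusted 0.534; rho = 0.236, p = 0.514).

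**Figure D4:**
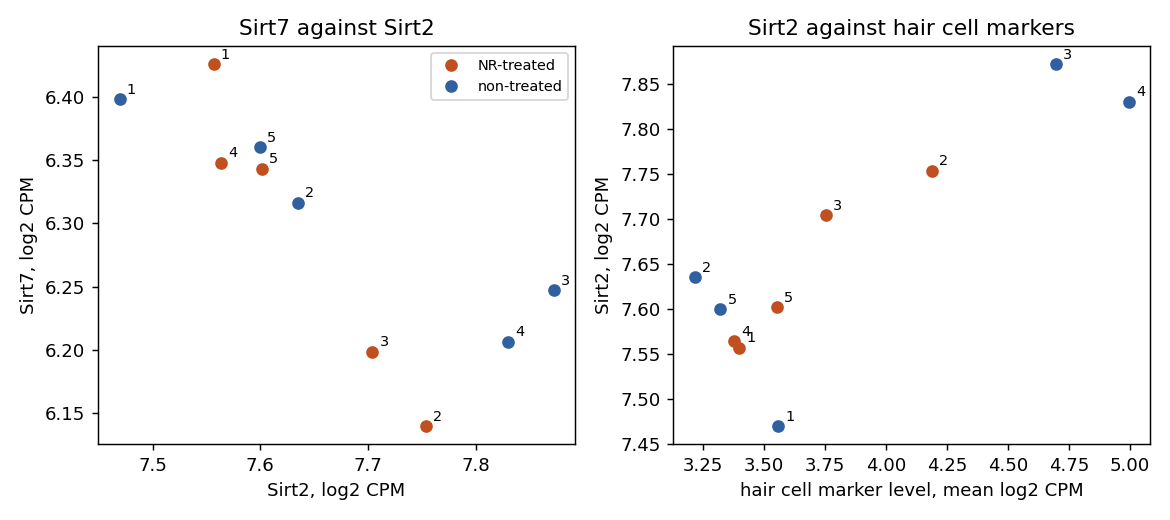
Left, log2 CPM of Sirt7 against that of Sirt2, and right, log2 CPM of Sirt2 against the mean log2 CPM of 10 hair cell genes; each point is a mouse, numbered within its group. Sirt7 is lower where Sirt2 is higher (r = -0.815), and non-treated mice 3 and 4 lie at the upper right of the hair cell plot (r = 0.863); neither relation passed the adjusted threshold.

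As a description of likeness, the 3 genes whose log2 CPM followed each sirtuin most closely over the 10 mice, after centring each group, were listed. They were Zfp820, Gm12174 and Fbxo42 for Sirt1 (r of 0.970, 0.951 and 0.928) and En2, Wscd2 and Pde4b for Sirt2 (0.973, 0.964 and 0.963). Mcts2, Fam186b and Tada2a followed Sirt3 (0.954, 0.896 and 0.895), and Spred3, Nubpl and Ildr2 followed Sirt4 (0.920, 0.915 and 0.911). For Sirt5 they were Itgb6, Rgs5 and Dmgdh (0.955, 0.947 and 0.946), for Sirt6 Ppp5c, Slc29a2 and Ctnnd2 (0.933, 0.926 and 0.916), and for Sirt7 Rit1, Med8 and Sp7 (0.966, 0.950 and 0.943). Sp7, a transcription factor of osteoblasts, is also a member of the bone list. The rho of these 21 pairs ran from 0.673, for Spred3 with Sirt4, to 1.00, for Wscd2 with Sirt2. No sirtuin was among the 3 genes of another, and with so many genes and 10 mice the best match of any gene is high.

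The genes around the family were given by lists: how many of each were tested, and how many passed. Over all lists, 96 genes were tested and 0 passed an adjusted p of 0.05 in edgeR, against 0% of all tested genes. At an unadjusted p of 0.05, 4.83% of all tested genes were higher with NR and 4.88% lower, and the median log2 fold change over all tested genes was -0.01. List members were counted at this unadjusted threshold. Enzymes and a transporter of NAD+ synthesis came first, since NR enters NAD+ through the kinases Nmrk1 and Nmrk2 and then the Nmnat enzymes that add the adenylyl group. Of 15 genes, 11 were tested and 0 passed in either direction, with a median of -0.08. Nmrk2, Kynu, Tdo2 and Ido1 fell under the filter on low counts. Nmnat2, the neuronal form of these, was the most abundant at 118 ± 9.14 CPM with NR and 125 ± 13.3 CPM without (log2 fold change -0.08). Qprt, of synthesis from quinolinate, was at 13.7 ± 1.38 and 16.3 ± 2.41 CPM (log2 fold change -0.25, SE 0.11, edgeR adjusted p = 0.517). Slc12a8, described as a transporter of nicotinamide mononucleotide, had a log2 fold change of -1.80 (SE 0.86, edgeR adjusted p = 0.531). That value came from non-treated mouse 2 alone, at 8.84 CPM against 0.418 to 0.794 CPM in the other 4 non-treated mice, and without that mouse it was 0.06.

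The other enzymes that consume NAD+ are the poly(ADP-ribose) polymerase family and the NAD glycohydrolases Cd38, Bst1 and Sarm1. Of these 17 genes, 3 were higher and 0 lower at an unadjusted p of 0.05, with a median log2 fold change of 0.00. Over all tested genes the shares were 4.83% higher and 4.88% lower. Sarm1, which degrades NAD+ in injured axons, was at 23.7 ± 2.54 CPM with NR and 19.0 ± 2.70 CPM without (log2 fold change 0.32, SE 0.11, edgeR adjusted p = 0.453). Parp6 was at 59.5 ± 2.04 and 53.8 ± 4.14 CPM (0.14, SE 0.06, edgeR adjusted p = 0.479), and Bst1, named after its values were seen, had 0.46 (SE 0.21, edgeR adjusted p = 0.512). Parp1, the DNA damage sensor and the most abundant, was at 108 ± 7.00 and 107 ± 9.77 CPM. Neuron markers, with the direction of Sarm1, differed too. Of 10, 9 had higher estimates in the NR-treated mice, and 4 were higher at the unadjusted threshold, which 4.83% of all tested genes passed in that direction. Their mean log2 level was 0.55 higher (exact permutation p = 0.0397, not adjusted over the marker lists). Their summed levels were 6606 to 7348 CPM with NR and 5073 to 7674 CPM without, so the non-treated range enclosed the NR-treated one. The part of the neuron marker levels in the Sarm1 value was not tested.

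The zinc-dependent deacetylases remove acetyl groups without NAD+ and were listed beside the sirtuins for that reason. Of 11 genes 0 passed in either direction, with a median of 0.00. Hdac3, of the nuclear receptor corepressor complexes, was the most abundant at 177 ± 14.5 CPM with NR and 178 ± 15.8 CPM without. Hdac6, which like SIRT2 deacetylates tubulin, was at 43.4 ± 0.949 and 40.3 ± 1.98 CPM (log2 fold change 0.11, SE 0.05, edgeR adjusted p = 0.521). Hdac1 had -0.09 (SE 0.07, edgeR adjusted p = 0.666).

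Of 11 regulators of the sirtuins, 1 was higher and 0 lower at an unadjusted p of 0.05, with a median of -0.04. Over all tested genes the shares were 4.83% higher and 4.88% lower. Usp22, a deubiquitinase that stabilizes SIRT1, had 126 to 133 CPM with NR and 115 to 122 CPM without, and the groups did not overlap, as for 1.65% of all tested genes. Its log2 fold change was 0.13 (SE 0.04), with an edgeR adjusted p of 0.420 and an exact permutation p of 0.00794, the smallest that 5 against 5 mice can give. Dyrk1a, a kinase that phosphorylates SIRT1, had -0.08 (SE 0.05, edgeR adjusted p = 0.606), and Stk11, the kinase upstream of AMPK and the most abundant of the list, had -0.01 (SE 0.06).

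Of 24 nuclear substrates and partners of sirtuins, 1 was higher and 4 were lower at an unadjusted p of 0.05, with a median of -0.10. Over all tested genes the shares were 4.83% higher and 4.88% lower. Pparg, the adipogenic nuclear receptor that SIRT1 restrains, was at 2.62 to 5.46 CPM with NR and 1.42 to 2.73 CPM without (log2 fold change 0.97, SE 0.23, edgeR adjusted p = 0.408). DESeq2 gave it an adjusted p of 0.0200, the one call among the 96 genes in the settings tried for the lists. By RT-PCR of the cochlea, however, the study found Pparg raised with age and not different with NR. The adipocyte genes, Plin1, Cidec and Pck1 of the study's own results among them, were higher in the sequenced NR-treated mice. Their mean log2 level was 1.87 above that of the non-treated mice (exact permutation p = 0.00794, not an independent test, as stated above). The part of this difference in the Pparg value was not tested. Hif1a, the hypoxia factor, was at 79.9 ± 9.25 and 103 ± 14.7 CPM (-0.37, SE 0.10, edgeR adjusted p = 0.420). Srebf1, a regulator of lipid synthesis and the most abundant of the list, was at 262 ± 28.4 and 325 ± 53.4 CPM (-0.31, SE 0.12, edgeR adjusted p = 0.466). The other 2 that were lower, Foxo4 at -0.21 and Wrn at -0.31, were named after their values were seen.

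Of 22 mitochondrial substrates, 20 were tested and 0 passed in either direction, with a median of 0.03. Sdha, the flavoprotein subunit of succinate dehydrogenase, was the most abundant at 429 ± 30.1 CPM with NR and 431 ± 29.3 CPM without. Slc25a5, an adenine nucleotide carrier, was at 314 ± 9.01 and 294 ± 14.5 CPM (log2 fold change 0.09, SE 0.05, edgeR adjusted p = 0.586). The study followed Sirt1, Sirt3 and 3 other mitochondria-related genes by RT-PCR of the cochlea, and reported no significant effect of NR on them. Of those 3 other genes, 0 passed here. Ppargc1a, the coactivator PGC-1α that SIRT1 deacetylates, had -0.17 (SE 0.12, edgeR adjusted p = 0.675), and -0.075 without NR-treated mouse 1. Ucp2 had -0.30 (SE 0.17, edgeR adjusted p = 0.599), and -0.13 without non-treated mouse 1. Tfam, the mitochondrial transcription factor, was at 32.7 ± 2.05 and 34.0 ± 2.16 CPM (-0.06, SE 0.06).

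**Figure D5:**
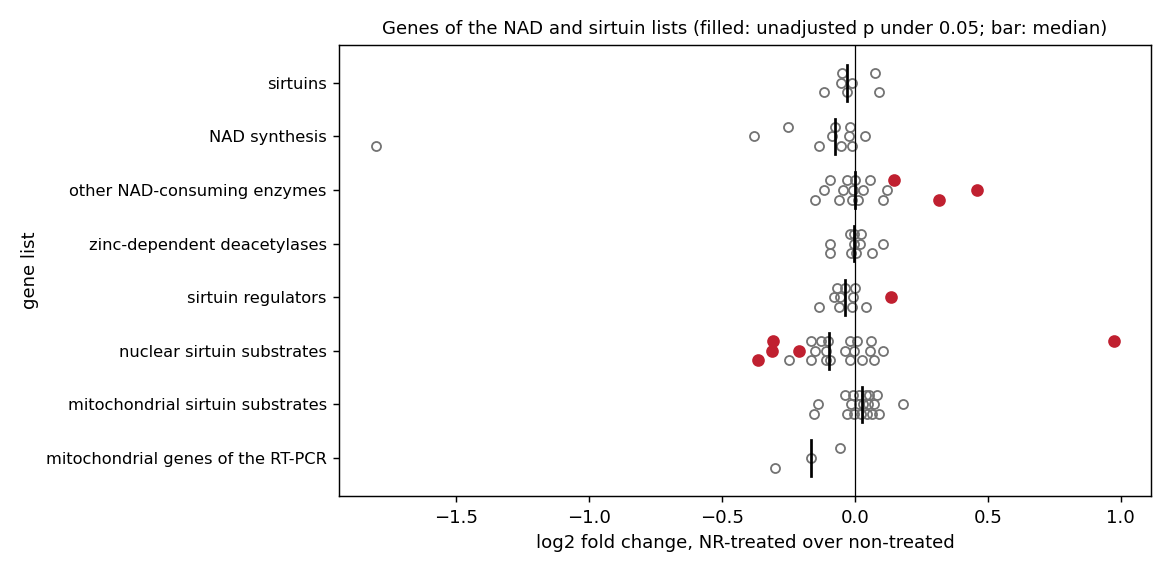
Log2 fold change, NR-treated over non-treated, of each tested gene (circles) in the sirtuin family and 7 lists of related genes; filled circles have an unadjusted edgeR p under 0.05 and bars mark list medians. The 7 sirtuins lie between -0.12 and 0.09, and the filled circles are 3 NAD-consuming enzymes, 1 regulator and 5 nuclear substrates.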

How the data were processed

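RNA of the cochlea was sequenced from 5 NR-treated and 5 non-treated mtKeima mice. The deposited values are raw read counts per gene; per the labels and methods, the authors filtered reads (fastp), aligned them to mm10 with STAR 2.6.1d and counted them with featureCounts 1.5.0. The counting mode was the default, without strand, in which reads that overlap 2 genes are left out. Here, 18329 genes that passed filterByExpr were tested with edgeR 4.0.16 (TMM, glmQLFit, glmQLFTest, no covariate, R 4.3.3), with Benjamini-Hochberg adjustment and a threshold of 0.05, and single genes with exact two-sided permutation over 252 labelings. P-values of correlations came from 100000 permutations. DESeq2 1.42.0, other size factors, filters and dispersions, the replicate block and leaving out each mouse were alternatives. Totals of 17060379 to 24419230 counts per mouse set the precision, and no 2 libraries agreed within sampling noise. Of 54532 genes, 53499 had identical coordinates in GENCODE M21, used with RefSeq GRCm38.p6 promoter windows. The fits were tested on simulated data.

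The members and lists were chosen with earlier results of these data known. Named genes were, by rule, all sirtuins; per list the most abundant gene and the 2 with the smallest p; the 3 genes most like each sirtuin; and genes overlapping or next to a sirtuin. Marker lists were described by counts. A gene that the rule named is not reported here.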

Additional observations from a re-analysis of the deposited data

Results flagged for a closer look

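Among 76 groups of 5 mice, for the sirtuins, the named genes of the lists and the marker lists, 4 had a mouse that stood apart from the rest by Dixon's criterion, where chance gives about 1 in 20. None of the 14 sirtuin groups was among them. Slc12a8 was at 8.84 CPM in non-treated mouse 2 and at no more than 0.794 CPM in the other non-treated mice. The neutrophil marker level was 6.74 (mean log2 CPM) in NR-treated mouse 2 and 8.33 to 8.54 in the other NR-treated mice. In non-treated mouse 1 the oligodendrocyte marker level was 2.17 against 3.57 to 3.87 in the others, and the skeletal muscle marker level was 2.95 against -0.12 to 0.49. That mouse was also the highest of all in Sirt1, at 33.9 CPM, and the lowest in Sirt2, at 177 CPM; without it the log2 fold changes were -0.05 and -0.10.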

How the results depend on the processing

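The count of 0 sirtuins past an adjusted p of 0.05 was the same under all 17 alternatives. The list genes were counted only under DESeq2, the replicate block and leaving out each mouse. Among these, no list gene passed in any but DESeq2, which called 1 (Pparg, 0.98, adjusted p = 0.0200). Directions near 0 turned for Sirt7, at 0.014 with library size only and 0.00063 with every gene with at least 1 read. With 1 mouse left out, log2 fold changes ran from -0.039 to 0.032 for Sirt7, -0.096 to 0.040 for Sirt5, -0.096 to 0.013 for Sirt2, -2.07 to 0.057 for Slc12a8, -0.023 to 0.050 for Parp1, -0.039 to 0.042 for Hdac3, -0.033 to 0.035 for Stk11 and -0.037 to 0.043 for Sdha. Without a turn of sign they ran from -0.15 to -0.053 for Sirt1, -0.051 to -0.0045 for Sirt4, 0.053 to 0.12 for Sirt6, -0.10 to -0.019 for Nmnat2, -0.24 to -0.075 for Ppargc1a and -0.39 to -0.13 for Ucp2, none called. The cause was not tested. The number of neighbours in the order of levels that passed was 4, 4 to 5 with 1 mouse left out, and 3 in the same direction with coding or spliced length; it was 0 in NR-treated or in non-treated mice alone, where 5 mice cannot give a p below 0.0625. With coding length the log2 ratio of Sirt4 to Sirt6 became -0.15, of Sirt6 to Sirt3 -0.42 and of Sirt1 to Sirt5 -0.034; with spliced length these were -0.078, -0.54 and -0.26. The ratio of Sirt3 to Sirt1 became 1.54 and 1.75 and passed, and that of Sirt7 to Sirt4 went from 0.57 to 1.40 and 1.73. Of 21 sirtuin pairs, 0 to 1 passed with 1 mouse left out, and of 77 marker relations 0. Genes past an adjusted p of 0.05 were 0 in edgeR and 105 in DESeq2, and 1 in edgeR without NR-treated mouse 2. Those past the unadjusted p were 1780, and 1153 without NR-treated mouse 3. The replicate numbers did not pair the mice: same-numbered mice correlated between -0.220 and 0.170, and 1 of 5 correlated best with its own number. With the replicate block, 0 sirtuins passed (Sirt3 log2 fold change 0.09, adjusted p = 0.681), and 1655 genes passed the unadjusted p. Whether the labelled replicates were separate in every step of library preparation is not stated, and p-values measure the spread between these mice.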

Other observations

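Pooled over both groups, the coefficient of variation of CPM within a group was 3.47% for Sirt3 and 4.39% for Sirt4, and 1.27% and 4.12% of all tested genes had a lower one. Counting error alone amounts to 3.68% for Sirt3 and 4.32% for Sirt4 at their mean counts. Sirt6 had 5.85% and Sirt7 6.89%, while Sirt2, Sirt1 and Sirt5 had 9.38%, 10.1% and 12.0%, against a median of 13.6% over all tested genes. These are descriptions over 5 mice a group, the differences between genes were not tested, and the coefficients also depend on how much each gene was counted.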
